A study of Mus musculus with 10 samples.

Results

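The 48 genes described here encode factors that build ribosomes in the nucleolus. They were taken from a written list by gene symbol, and all 48 were found among the 17658 genes of the deposited table. They were divided by the step at which they act into 8 proteins of small nucleolar ribonucleoproteins (snoRNPs), 5 nucleolar transcription and scaffold proteins, 16 small subunit factors and 19 large subunit factors. RNA polymerase I transcribes a long precursor of ribosomal RNA in the nucleolus. SnoRNPs modify that precursor, the small subunit processome cuts out the small subunit RNA, and a separate series of complexes folds and trims the large subunit RNA before both subunits are exported. Resting lymphocytes are small cells with small nucleoli, and activated lymphocytes are known to enlarge both as they prepare to grow and divide.

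The series measured polyadenylated RNA of C57BL/6 mouse B cells from spleen and lymph node, purified by magnetic removal of other cells at 10 weeks of age. The cells were Nr4a1+/+ or Nr4a1-/-. Nr4a1 encodes the orphan nuclear receptor Nur77, and the stated aim was to identify genes induced differently in the knockout. There was 1 unstimulated library of each genotype, given no agent. For each genotype there were 4 (letters A to D) from cells kept for 2 hours with anti-IgM at 10 µg/mL, an antibody that crosslinks the antigen receptor. The labels put the unstimulated libraries at the start, and no library came from cells kept for 2 hours without anti-IgM. Every change with anti-IgM given below therefore includes any effect of 2 hours in culture, which was not tested. The labels do not say whether the letters stand for separate mice, so p-values measure the spread between these libraries, which may be technical. How the knockout allele was made is not given in the sources used here.

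The authors gave levels in FPKM, which divides the fragments of a gene by its transcript length and by the mapped fragments of the library. FPKM summed to between 557214 and 571784 in the stimulated libraries, and to 674961 and 595500 in the unstimulated wild-type and knockout libraries. Absolute depth is unknown, and relative depth, recovered from low values, ran from 0.915 to 1.06. Nr4a1 transcripts were present in every library: they stood at 126 FPKM in both unstimulated libraries, at 808 ± 47.2 (SD, n = 4) in stimulated wild type and at 702.1 ± 44.6 (SD, n = 4) in the stimulated libraries labelled knockout, a difference of -0.20 (limma adjusted p = 0.0432) with overlapping ranges. The position of the deleted part is not given in the sources used here, so this gene-level value does not check the genotype, and libraries are named by their labels throughout. The 8 B cell markers summed to 4315 and 4101 FPKM without stimulation and to between 1764 and 1895 FPKM after it. However, Blk went from 241 and 252 to 418 ± 1.41 and 417 ± 4.89 FPKM (SD, n = 4). Cr2 went from 41.8 to 63.9 ± 3.37 FPKM in wild type and from 45.6 to 44.25 ± 2.99 FPKM in the labelled knockout (SD, n = 4). Tests covered the 10225 genes whose mean reached 1 FPKM, and all 48 factors were among them.

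Promoter sequence was examined because Myc, whose product is known to bind the letters CACGTG together with Max and to drive nucleolar genes, rose in the same cells (limma log2 change 3.33), from 61.5 and 88.9 FPKM to 720.4 ± 25.4 in wild type and 784 ± 30.1 in the labelled knockout (SD, n = 4 each). The window ran from 250 bases before to 50 bases after the RefSeq start (assembly GRCm38.p6). Since CACGTG reads the same on both strands, 1 search covers both. A window was held for 41 of the 48 genes, and 10 of the 41 (24.4%) contained CACGTG, against 958 of 7462 tested genes with a window (12.8%) and 2349 of all 32851 windows (7.15%). A match is a description of letters and not of a bound site. The median fitted log2 change with anti-IgM was 1.35 for the 10 genes with the match, 1.25 for the 31 without it and 1.27 for the 7 with no window. The match lay before the start in 3 genes and after it, in transcribed sequence, in 7. The 30 bases around each match are printed below on the strand of the gene, 5′ to 3′, with the match in capitals and the genes in order of their rise, to show where each match lies.
Grwd1 (chr7:45830740-45830769, minus strand, 35 bases after the start): aagggccggagtcgCACGTGtgaaaccgga
Nop2 (chr6:125131811-125131840, plus strand, 60 bases before the start): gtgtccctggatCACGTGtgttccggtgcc
Nle1 (chr11:82908355-82908384, minus strand, 24 bases after the start): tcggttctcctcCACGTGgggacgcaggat
Tsr1 (chr11:74898092-74898121, plus strand, 25 bases after the start): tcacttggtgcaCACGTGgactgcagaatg
Mybbp1a (chr11:72441347-72441376, plus strand, 41 bases after the start): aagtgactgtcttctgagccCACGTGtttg
Wdr43 (chr17:71616220-71616249, plus strand, 18 bases after the start): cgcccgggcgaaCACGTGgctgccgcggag
Imp4 (chr1:34439696-34439725, plus strand, 121 bases before the start): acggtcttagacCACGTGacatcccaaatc
Pes1 (chr11:3963965-3963994, plus strand, 3 bases after the start): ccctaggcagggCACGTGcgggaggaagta
Nmd3 (chr3:69721929-69721958, plus strand, 114 bases before the start): cgccccttgctaCACGTGtattctttgacc
Ltv1 (chr10:13193092-13193121, minus strand, 29 bases after the start): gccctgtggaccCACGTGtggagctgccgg

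Of the 3 genes with the match before the start, Nop2 had the largest rise with anti-IgM, and its 250 bases before the start (GRCm38.p6, chr6:125131633-125131882, plus strand, GC content 67.6%) are given whole to show the match in its surroundings.
Nop2: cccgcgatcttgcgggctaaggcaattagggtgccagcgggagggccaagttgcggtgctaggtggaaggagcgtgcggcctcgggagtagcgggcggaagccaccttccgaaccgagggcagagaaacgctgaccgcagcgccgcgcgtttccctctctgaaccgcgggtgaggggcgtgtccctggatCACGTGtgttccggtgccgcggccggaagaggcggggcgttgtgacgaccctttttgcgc

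Transcripts of the ribosome biogenesis factors were more abundant after anti-IgM in both genotypes. The median level of the 48 genes without stimulation was 43.65 in wild type and 39.9 FPKM in the labelled knockout, against 98.2 ± 2.77 and 99.8 ± 2.16 FPKM (SD, n = 4 each) after stimulation. Their summed FPKM was 3245 (0.481% of the library's sum) and 3116 (0.523%) without stimulation, and 7665 ± 187 (1.35% ± 0.0368) and 7800 ± 249 (1.38% ± 0.0320) with it. Each of the 48 genes was higher in all 8 stimulated libraries than in both unstimulated ones, which held for 28.6% of tested genes.

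The change was fitted with limma on log2(FPKM + 1) on the 10 libraries together, allowing for genotype. A call needed both a log2 change of at least 1 and a p under 0.05 after Benjamini-Hochberg adjustment. Among the 48 factors 42 passed in the upward direction and 0 in the downward one, while 7.94% of tested genes were called higher and 12.4% lower. On the adjusted p alone all 48 were higher, against 31.2% of tested genes. The median fitted log2 change was 1.30, a fold of 2.46, and the median over all tested genes was -0.17. Changes ran from 0.21 for Imp3 to 2.24 for Rrp1b, with standard errors from 0.0364 to 0.0942. By step, 7 of 8 snoRNP proteins (median 1.24), 4 of 5 nucleolar proteins (1.36), 13 of 16 small subunit factors (1.28) and 18 of 19 large subunit factors (1.40) were called higher. The other 6 genes were Imp3, Nop10 (0.60), Ddx18 (0.87), Tcof1 (0.89), Ltv1 (0.94) and Ddx10 (0.95). Scaling each library by the median of ratios moved the median of all tested genes to 0.035 and the median of the 48 to 1.53, with 46 called higher, and turned the split of all called genes from 812 higher and 1266 lower to 1155 higher and 801 lower. The summed level of 8 myeloid markers was 352 and 313 FPKM without stimulation and between 112 and 259 with it, with none at 0 throughout. Most of that sum was Cst3 (275 and 221 FPKM, then 112 ± 14.2 and 91.0 ± 6.05), while Lyz2 was at 56.5 and 71.8 and then 50.1 ± 43.3 and 42.2 ± 31.9 FPKM (SD, n = 4). Their part in the result was not tested. In these bulk libraries a change in the number of cells of a type and a change in RNA per cell cannot be told apart.

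**Figure D1:**
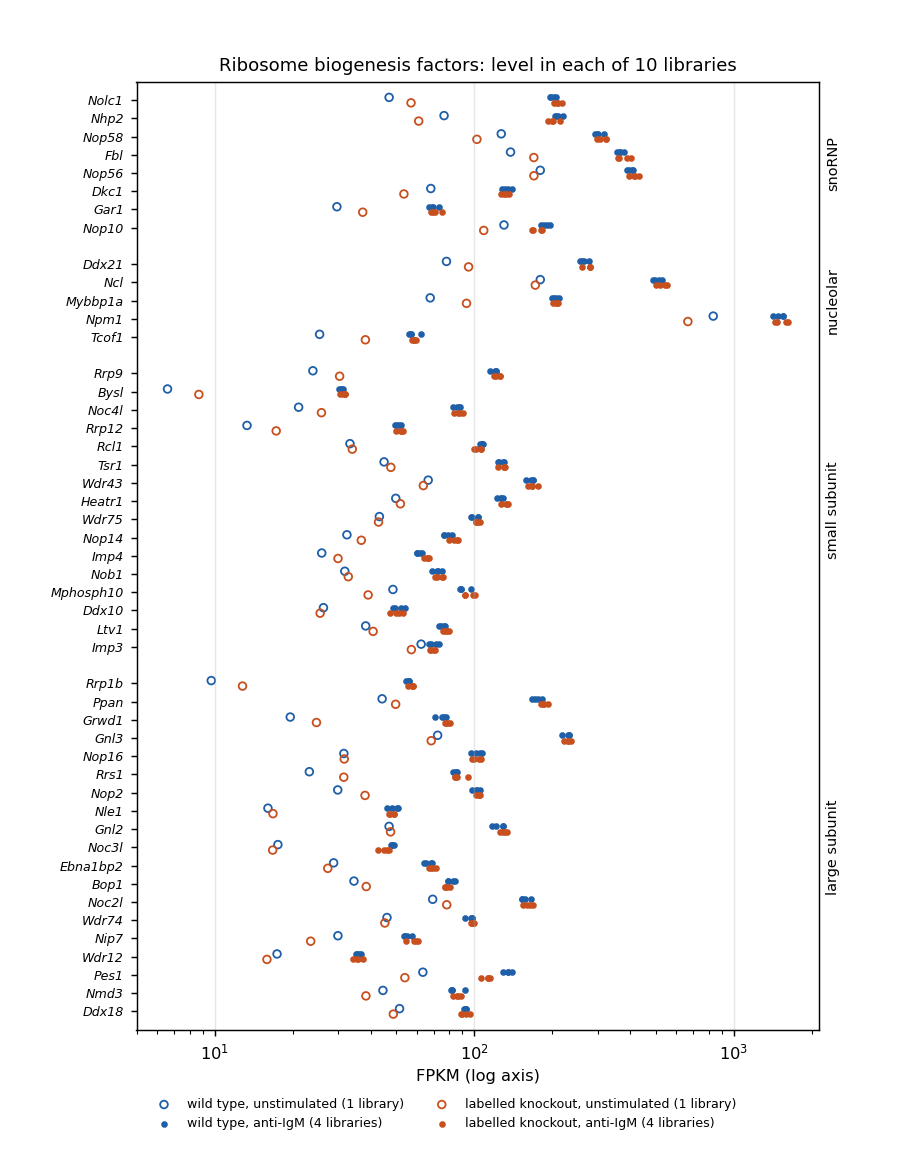
FPKM (log axis) of each of the 48 genes in each of the 10 libraries, grouped by step; open circles are the single unstimulated libraries and dots the 4 stimulated libraries, in blue for wild type and orange for the labelled knockout. For every gene the 8 dots lie to the right of both open circles, and Imp3, in the small subunit group, has the shortest distance between them.

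**Figure D2:**
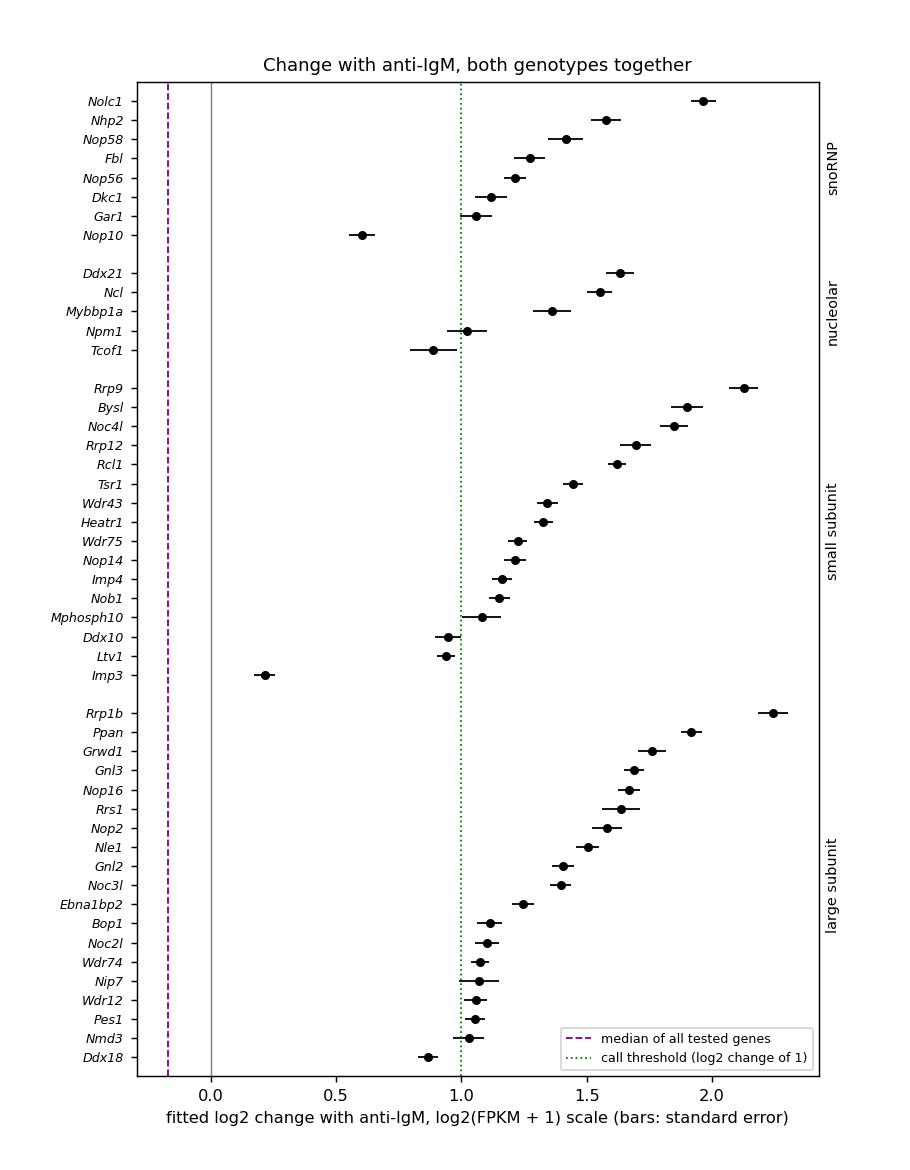
Fitted log2 change with anti-IgM (points) and its standard error (bars) for each gene, on the log2(FPKM + 1) scale, both genotypes fitted together. The dashed line marks the median of all tested genes (-0.17) and the dotted line a log2 change of 1, which 42 of the 48 points exceed.

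Among the snoRNP proteins the largest rise was that of Nolc1, the phosphoprotein also known as Nopp140 that accompanies snoRNPs between Cajal bodies and the nucleolus. Nolc1 stood at 47.0 FPKM in unstimulated wild type and 57.1 FPKM in the unstimulated labelled knockout. After anti-IgM it stood at 207, 196, 203 and 197 FPKM in the 4 wild-type libraries, in order of their letters, and the labelled knockout ones gave 208, 203, 218 and 211 FPKM. All 8 stimulated values were more than 3 times either unstimulated one, and the genotypes overlapped. Its fitted log2 change was 1.96 (SE 0.050, limma adjusted p = 7.9e-11).

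The box C/D proteins carry out ribose methylation of ribosomal RNA. Their transcripts rose to a like degree when both genotypes were fitted together, but less so within each genotype. Fbl, the methyltransferase fibrillarin, changed by 1.27 (SE 0.0618), and the paired core proteins Nop58 and Nop56 by 1.42 (SE 0.0699) and 1.21 (SE 0.0447). Nop56 had the highest mean level of the snoRNP group, at 180 and 169.9 FPKM without stimulation and 400.0 ± 9.20 and 414 ± 14.4 FPKM (SD, n = 4) with it. Against its single unstimulated library, wild type rose by 1.40 for Fbl, 1.24 for Nop58 and 1.15 for Nop56. The labelled knockout rose by 1.15, 1.60 and 1.28. Within the summed FPKM of the 3 box C/D genes the share of Nop56 went from 40.4% and 38.4% to 37.5% ± 0.424 and 37.5% ± 0.799. That of Nop58 went from 28.6% and 23.2% to 28.2% ± 0.689 and 28.3% ± 0.0524, and that of Fbl from 31.0% and 38.4% to 34.3% ± 0.688 and 34.2% ± 0.812 (SD, n = 4).

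The box H/ACA proteins, which convert uridine to pseudouridine, did not keep their proportions. Nhp2, a core RNA-binding protein, went from 76.5 and 61.1 FPKM to 210.3 ± 6.36 and 202 ± 8.99 FPKM (SD, n = 4), a fitted log2 change of 1.58 (SE 0.0593). Dkc1, the pseudouridine synthase dyskerin, changed by 1.12 (SE 0.0641) and Gar1, the lowest of the group at 29.6 and 37.2 FPKM without stimulation, by 1.06 (SE 0.0639). Nop10, the smallest core protein of the complex, stood at 130.3 and 109 FPKM without stimulation. It reached 195, 191, 181 and 186 in wild type and 168, 169, 183 and 180.4 FPKM in the labelled knockout. The stimulated libraries lay above both unstimulated ones and the genotypes overlapped, and the fitted change of 0.60 (SE 0.0508) was the smallest of the snoRNP group. Nop10 therefore fell as a share of the summed FPKM of the 4 H/ACA genes, from 42.8% and 41.7% to 31.3% ± 0.957 and 30.2% ± 0.330, while Nhp2 moved from 25.1% and 23.4% to 34.97% ± 0.994 and 34.9% ± 0.647 (SD, n = 4). These shares are descriptions without a test.

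In the nucleolar group Ddx21, an RNA helicase that couples RNA polymerase I transcription to processing, changed most, by 1.63 (SE 0.0552), from 78.2 and 95.2 FPKM to 265 ± 9.58 and 275 ± 9.63 FPKM (SD, n = 4). Ncl, nucleolin, went from 179.8 and 172 FPKM to 507 ± 18.1 and 529 ± 23.0 FPKM, a change of 1.55 (SE 0.0501). Mybbp1a, a nucleolar protein first known as a Myb partner, changed by 1.36 (SE 0.0772), from 67.7 and 93.4 FPKM to 205 ± 5.57 and 207 ± 4.39 FPKM. Npm1, nucleophosmin, which shapes the outer granular layer of the nucleolus, was the most abundant of the 48 transcripts. It stood at 834 and 666 FPKM without stimulation and after anti-IgM at 1556, 1482, 1551 and 1412 in wild type and 1473, 1441, 1595 and 1619 FPKM in the labelled knockout. The stimulated ranges of the genotypes overlapped and both lay above the unstimulated values, and the fitted change was 1.02 (SE 0.0793). Npm1 is known to have many processed copies in the genome, so reads could be split among them. Tcof1, treacle, a cofactor of RNA polymerase I, was the lowest of the group and changed least, by 0.89 (SE 0.0942), from 25.4 and 38.1 FPKM to 58.1 ± 2.83 and 58.8 ± 0.927 FPKM.

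Among the small subunit factors Rrp9, a protein particular to the U3 snoRNP that guides the early cuts of the precursor, rose most. It stood at 23.9 FPKM in unstimulated wild type and 30.3 FPKM in the labelled knockout, then at 121, 115, 119.98 and 121 FPKM in stimulated wild type and 125, 119, 126 and 121 FPKM in the stimulated labelled knockout. Every stimulated value was more than 3 times the higher unstimulated one, and the genotypes overlapped. The fitted change was 2.13 (SE 0.0577, limma adjusted p = 1.2e-10), a fold of 4.37. Bysl, bystin, a late small subunit factor, went from 6.58 and 8.69 FPKM to 30.7 ± 0.497 and 31.3 ± 0.611 FPKM (SD, n = 4), a change of 1.90 (SE 0.0627), from the lowest mean level of the group. Noc4l, which acts in the processome with Nop14, changed by 1.85 (SE 0.0569), and Rrp12, an export factor, by 1.70 (SE 0.0621). Noc4l went from 21.1 and 25.8 FPKM to 86.0 ± 2.32 and 87.1 ± 3.09 FPKM (SD, n = 4).

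The remaining small subunit factors outside the Mpp10 complex changed by 0.94 to 1.62. Heatr1, Wdr43 and Wdr75, which bind the nascent precursor and link its transcription to its processing, changed by 1.33, 1.34 and 1.22. Wdr43 had the highest mean level of the small subunit group, going from 66.5 and 63.7 FPKM to 165 ± 4.66 and 168 ± 6.25 FPKM (SD, n = 4). Rcl1, a processome component, changed by 1.62, Nop14 by 1.21 and the helicase gene Ddx10 by 0.95. Of the factors that act on the nearly finished small subunit, Tsr1 changed by 1.45, Nob1, the nuclease that makes the mature end of the small subunit RNA, by 1.15, and Ltv1 by 0.94. Standard errors of these 9 changes lay between 0.0366 for Ltv1 and 0.0519 for Ddx10.

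The Mpp10 complex binds the U3 RNA and consists of Mphosph10, Imp3 and Imp4, and its 3 genes differed in how far they rose. Imp3 stood at 62.5 and 57.3 FPKM without stimulation and at 67.2, 73.2, 71.5 and 68.4 FPKM in stimulated wild type and 70.5, 67.8, 70.1 and 68.0 FPKM in the stimulated labelled knockout. All 8 lay above both unstimulated values, but by little, and the genotypes overlapped. The fitted change of 0.21 (SE 0.0433, limma adjusted p = 0.0008) was the smallest of the 48. Imp4 went from 25.9 and 29.9 FPKM to 61.2 ± 1.27 and 65.7 ± 1.33 FPKM, a change of 1.16 (SE 0.0387), and Mphosph10 from 48.6 and 39.0 FPKM to 90.7 ± 4.18 and 96.2 ± 4.56 FPKM, a change of 1.08 (SE 0.0778). The share of Imp3 in the summed FPKM of the 3 genes was 45.6% and 45.4% without stimulation and 31.6% ± 0.949 and 29.9% ± 0.698 with it, while that of Imp4 went from 18.9% and 23.7% to 27.6% ± 1.10 and 28.5% ± 0.811 (SD, n = 4).

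The largest rise of all 48 genes was that of Rrp1b, a nucleolar protein of large subunit assembly (chr17:32036100-32062865, plus strand, in GENCODE M21). It stood at 9.70 and 12.8 FPKM without stimulation, then at 56.1, 54.7, 55.7 and 56.1 in wild type and 58.3, 57.4, 55.8 and 58.0 FPKM in the labelled knockout. The 8 stimulated values lay close together and more than 4 times above either unstimulated one. The fitted change was 2.24 (SE 0.0606, limma adjusted p = 1.2e-10), a fold of 4.73. Ppan, a factor of early large subunit processing, went from 44.2 and 49.8 FPKM to 174 ± 6.95 and 186 ± 4.83 FPKM (SD, n = 4), a change of 1.92 (SE 0.0428). Grwd1, a chaperone of a large subunit ribosomal protein, changed by 1.76 (SE 0.0561), from 19.6 and 24.7 FPKM to 75.0 ± 2.98 and 78.6 ± 1.49 FPKM.

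The other large subunit factors ran from 1.69 down to 0.87. Gnl3, the GTPase nucleostemin and the most abundant of the group, went from 72.3 and 68.3 FPKM to 228 ± 6.40 and 229.8 ± 5.82 FPKM (SD, n = 4), a change of 1.69 (SE 0.0402). Nop16, Rrs1, Nop2 (a ribosomal RNA methyltransferase), Nle1, Gnl2 and Noc3l changed by 1.67, 1.64, 1.58, 1.51, 1.41 and 1.40, and Ebna1bp2 by 1.25. Noc2l, Wdr74 and Nip7 changed by 1.10, 1.07 and 1.07, and Nmd3, the adaptor that exports the large subunit to the cytoplasm, by 1.03. The smallest change of the group was that of the helicase gene Ddx18, from 51.6 and 48.8 FPKM to 92.5 ± 0.776 and 92.0 ± 3.54 FPKM (SD, n = 4), 0.87 (SE 0.0396).

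The PeBoW complex, made of Pes1, Bop1 and Wdr12, is needed to mature the large subunit RNA, and its 3 genes rose nearly in step, by 1.05 (SE 0.0406), 1.11 (SE 0.0496) and 1.06 (SE 0.0452). Wdr12 was the lowest of the large subunit group, at 17.4 and 15.9 FPKM without stimulation and 35.7 ± 0.705 and 35.6 ± 1.33 FPKM (SD, n = 4) with it. Within the complex Pes1 held 55.0% of the summed FPKM in unstimulated wild type and 53.5% ± 0.291 after stimulation. In the libraries labelled knockout it held 49.9% and 49.5% ± 0.715 (SD, n = 4), so the share was lower there than in wild type both with and without anti-IgM, a description without a test.

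For the genotype comparison limma was fitted to the 8 libraries that received anti-IgM, where 9.72% of tested genes were called at an adjusted p under 0.05. Of the 48 genes 2 were called, Pes1, which was lower in the labelled knockout, and Imp4, which was higher. The median difference, labelled knockout minus wild type, was 0.028 on the log2 scale for the 48 and -0.024 for all tested genes, and 35 of the 48 were on the higher side. At an unadjusted p under 0.05 there were 6 of the 48, against 22.1% of tested genes. These values moved with scaling, and so did the median of all tested genes. Under median-of-ratios scaling 16 of the 48 (2320 of 10225 tested genes) were under 0.05 and 42 were on the higher side. The median was 0.071, against 0.016 for all tested genes. With trends in GC content and length removed it was 0.063 against 0.010, with 16 of the 48 (2317 of 9730) under 0.05. In both settings the share of the 48 under 0.05 was above that of tested genes, where as reported it was below. Under quantile normalization 10 (2283 of 10225) were under 0.05, 30 were on the higher side and the medians were 0.011 and 0.0045. The libraries of the genotypes did not overlap for 3 of the 48, Pes1, Imp4 and Noc3l, against 15.5% of tested genes. For most of these factors no genotype difference after anti-IgM was detected with 4 libraries a group.

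Pes1 (chr11:3963975-3980004, plus strand, in GENCODE M21) stood at 139, 129.7, 135 and 135 FPKM in stimulated wild type and at 113, 107, 115 and 113 FPKM in the stimulated labelled knockout. The lowest wild-type library was above the highest one labelled knockout. The difference was -0.27 (SE 0.0310, limma adjusted p = 0.000641), which put the mean at 111.8 ± 3.76 against 134.7 ± 3.92 FPKM (SD, n = 4 each). The unstimulated libraries differed in the same direction, with 54.1 against 63.4 FPKM, a log2 difference of -0.23. The call was kept in all 21 alternative fits, with adjusted p from 0.0002 to 0.0071. The other PeBoW genes were not called, with differences of -0.053 for Bop1 and -0.005 for Wdr12.

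Imp4 (chr1:34439851-34449356, plus strand, in GENCODE M21) stood at 62.8, 60.3, 60.1 and 61.8 FPKM in stimulated wild type and at 65.8, 66.4, 66.9 and 63.8 FPKM in the stimulated labelled knockout. The groups did not overlap, but the gap between them was small, and the difference was 0.10 (SE 0.0255, limma adjusted p = 0.037). The call was lost in 10 of 21 alternative fits, in which adjusted p reached 0.117 and which included leaving out wild-type library B, C or D (adjusted p = 0.0995, 0.0941 and 0.0720) or labelled knockout library A, B or C (0.0852, 0.0804 and 0.0879). Noc3l, Nop10, Nop14 and Ppan differed by -0.094, -0.11, 0.099 and 0.095 at limma adjusted p from 0.107 to 0.122, and Ppan was called under 2 of the alternatives. The summed T cell markers differed between genotypes too, at 56.6 to 59.9 FPKM in stimulated wild type and 75.9 to 77.9 FPKM in the stimulated labelled knockout. Of the 10 genes of that list Lck, which B cells can also express, held most of the sum (46.6 ± 1.96 and 65.3 ± 1.07 FPKM). Cd5 differed in the same direction (7.17 ± 0.608 and 8.655 ± 0.334 FPKM) and Tcf7 in the other (3.36 ± 0.828 and 1.75 ± 0.620 FPKM, SD, n = 4). Cd3e, Cd3d, Cd3g, Cd4 and Cd8a reached at most 0.53 FPKM in any library.

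**Figure D3:**
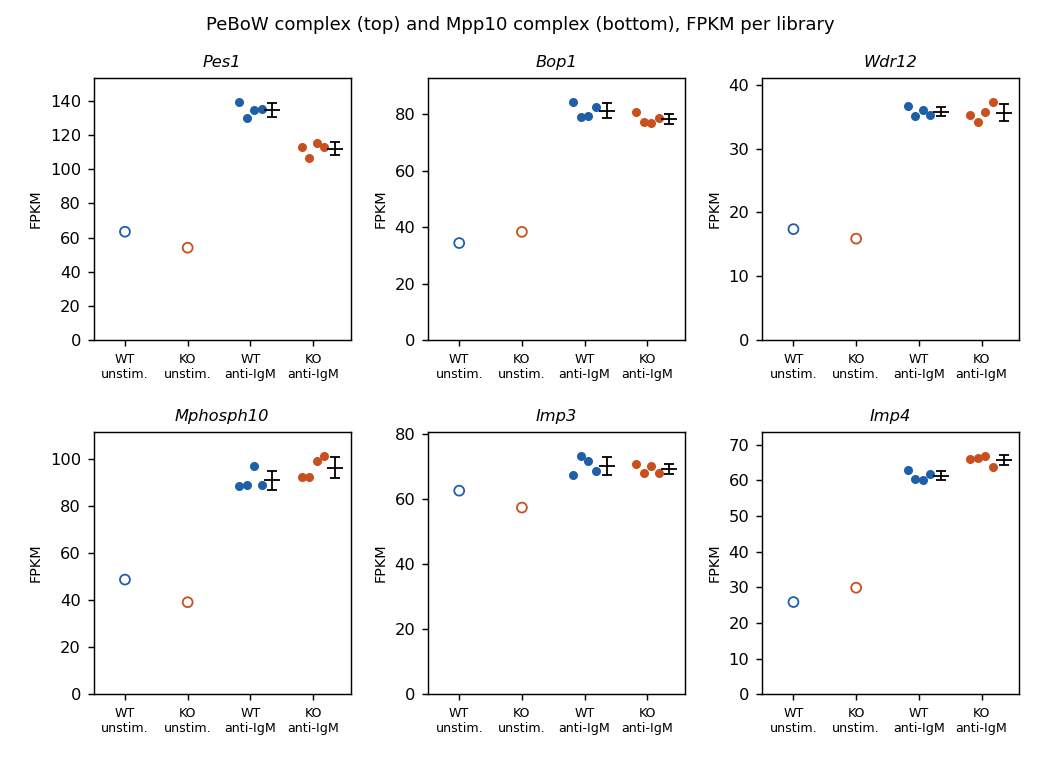
FPKM per library of the PeBoW genes (Pes1, Bop1, Wdr12, top) and the Mpp10 complex genes (Mphosph10, Imp3, Imp4, bottom); open circles are the single unstimulated libraries, dots the 4 stimulated ones, and the black bar gives their mean and SD. KO is the labelled knockout. Pes1 is lower in the labelled knockout without overlap, Imp4 is slightly higher, and Imp3 is only slightly above its unstimulated values.

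Several of these values could include reads of an overlapping gene. In GENCODE M21 the exons of 16 of the 48 genes overlapped those of a gene on the opposite strand, by 50 bases or more in 10. The library kit keeps strand, but its use in counting is not stated, so these values are uncertain to that extent. The longest overlaps were those of Tsr1 with Srr (1159 bases), Noc2l with Samd11 (598), Bysl with Ccnd3 (361) and Imp4 with Gm28306 (209), and Pes1 shared 138 bases with 4930556J24Rik.

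The difference in rise between genotypes was fitted with limma as an interaction over the 4 group means. With 1 unstimulated library per genotype, the lone libraries are assumed to vary like the stimulated ones. Of the 48 genes 18 were called at an adjusted p under 0.05, against 18.9% of tested genes: 6 rose more in the labelled knockout (4.18% of tested genes) and 12 rose less (14.7%). In wild type 37 genes rose by a log2 of 1 or more (9.09% of tested genes), in the labelled knockout 41 (7.57%) and in both genotypes 35 (6.43%). Across the 48 genes the 2 rises had Pearson's r of 0.86 and Spearman's rho of 0.82, and across 10225 tested genes 0.89 and 0.91. The points share libraries.

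The 6 with a larger rise in the labelled knockout were Nip7 (0.42), Mphosph10 (0.39), Nop58 (0.36), Npm1 (0.35), Dkc1 (0.32) and Nhp2 (0.26). The 12 with a smaller rise were Tcof1 (-0.55), Mybbp1a (-0.45), Rrs1 (-0.39), Bysl (-0.33), Rrp1b (-0.33), Rrp12 (-0.32), Nop2 (-0.31), Gar1 (-0.29), Rrp9 (-0.29), Noc4l (-0.26), Grwd1 (-0.25) and Nolc1 (-0.21). Of the 5 snoRNP genes among the 18, Nop58, Dkc1 and Nhp2 had the larger rise and Gar1 and Nolc1 the smaller one. All 12 were higher, and all 6 lower, in the unstimulated library labelled knockout than in the unstimulated wild-type one, by 0.28 to 0.57 and by -0.34 to -0.31 on the log2 scale. After anti-IgM the same 18 genes differed between genotypes by only -0.058 to 0.084. Nop58 shows the pattern, with 127 against 102 FPKM without stimulation and 301 ± 10.4 against 312 ± 12.3 FPKM (SD, n = 4) with it. Tcof1 shows the opposite one, with the unstimulated and stimulated values given above.

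GC content of the transcripts moved with these differences. Its median was 43.1% for the 6 genes with the larger rise, 55.1% for the 12 with the smaller rise and 50.4% for all 48 genes. Across the 48 genes, GC content and the unstimulated difference had Pearson's r of 0.65 and Spearman's rho of 0.65, and across 9730 tested genes 0.30 and 0.41; every point comes from the same 2 libraries. With the stimulated difference r was -0.012 across the 48. Once trends with GC content and length were removed from each library, a step added after the data were seen, 1 of the 48 was called, Nip7 (0.46, adjusted p = 0.0228). Calls went from 1931 of 10225 tested genes to 471 of the 9730 with known GC content and length. The split among the 48 moved with scaling: it was 4 larger and 4 smaller under median-of-ratios scaling, and 1 larger and 23 smaller with each library rescaled to the same sum. Over all tested genes the same scalings gave 443 larger and 849 smaller, and 175 larger and 3455 smaller. A lost call was not always a lost difference. As reported, the differences in rise ran from 0.26 to 0.42 for the 6 genes and from -0.55 to -0.21 for the 12. With GC and length trends removed they ran from 0.24 to 0.46 and from -0.27 to -0.030. The unstimulated libraries have no replicate, so a difference between genotypes and one between those libraries cannot be told apart.

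**Figure D4:**
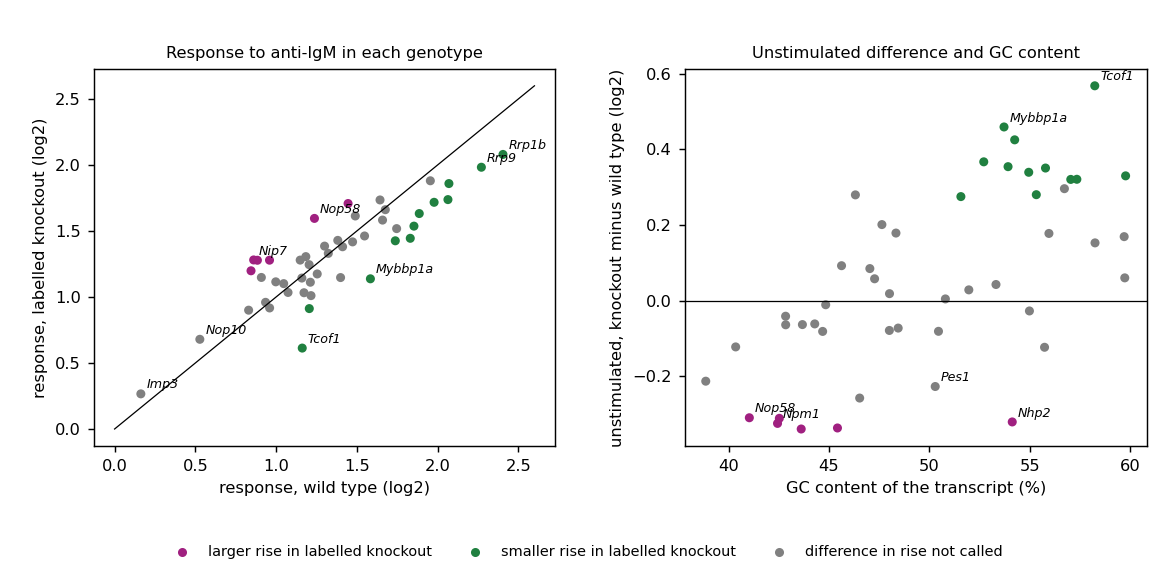
Left, rise of each of the 48 genes with anti-IgM (log2) in the labelled knockout against wild type, with the line of equal rise. Right, difference between the unstimulated libraries (labelled knockout minus wild type, log2) against GC content of the transcript in percent; purple points rose more and green points less in the labelled knockout at adjusted p under 0.05, and the green points lie at higher GC content (median 55.1% against 43.1%).

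Other genes of ribosome assembly were read from a separate list of 83, all of which were tested. Of these 40 were called higher with anti-IgM and 0 lower (7.94% and 12.4% of tested genes), and the median change was 0.98. Among 32 further small subunit factors 17 were called higher, led by the processome genes Pwp2 (1.66) and Tbl3 (1.59), while Ddx52 (-0.30) and Rrp36 (0.045) were at the low end. Among 45 further large subunit factors 21 were called higher, led by Urb2 (1.62) and Mrto4 (1.51), with Nsa2 (-0.33) and Nop53, named Gltscr2 in the table, (-0.061) lowest. Of 6 genes of RNA polymerase I initiation 2 were called higher, Ubtf (1.05) and Rrn3 (1.02), and the lowest were Taf1b (-0.69) and Taf1d (0.57). On the adjusted p alone 75 of the 83 rose and 3 fell, against 31.2% and 47.7% of tested genes. Between genotypes 1 of the 83 was called (9.72% of tested genes), Rbm28. It stood at 39.0 ± 1.04 FPKM in stimulated wild type and 48.6 ± 1.61 FPKM in the stimulated labelled knockout (SD, n = 4). The difference was 0.31 (limma adjusted p = 0.000295). Median-of-ratios scaling gave 2 calls among the 83 (936 of 10225 tested genes). Removal of GC and length trends gave 5 (1096 of 9730).

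Genes of small nucleolar RNAs lie inside 8 of the 48 genes (16.7%), Nop56, Nop58, Dkc1, Ncl, Wdr43, Tsr1, Gnl3 and Ppan, against 199 of 9730 tested genes (2.05%), in GENCODE M21. Nop56 holds 5 such genes, among them Snord57 and Snord110, Nop58 holds 4, and Gnl3, Ncl and Wdr43 hold 3 each. The 8 host genes had a median change with anti-IgM of 1.43 and the other 40 of 1.24, a description without a test. The small RNAs themselves are not polyadenylated and are not analysed here.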

How the data were processed

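The authors deposited 1 table of gene-level FPKM with 2 decimals for 10 libraries. STAR 2.4, RSEM 1.2.14 and build mm10 are named in the submitters' processing notes, without roles, and the table's name gives RSEM; which annotation and filters were used and whether strand was counted are not given in the sources used here. FPKM are no counts, so no count model was fitted. Values were taken as log2(FPKM + 1), which understates changes of low genes, and the 10225 genes whose mean reached 1 FPKM were tested. limma 3.58.1 (R 4.3.3, lmFit, eBayes with trend, two-sided, Benjamini-Hochberg) was fitted on all tested genes and was run on simulated data. The simulation gave every library the spread of the stimulated ones. It therefore cannot check the assumption that the lone unstimulated libraries vary like them. Relative depth came from 87 of 241 low genes searched whose values were multiples of 1 step. GC content, length and overlaps came from GENCODE M21 (9730 tested genes, 95.2%), promoters from RefSeq. Same-lettered libraries did not deviate together (correlations from -0.12 to 0.045), so letters were not used as pairs.

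The 48 members, the lists and the tests were chosen with earlier results of these data known. Values are printed for the 3 largest and the smallest changes of each step, the highest and lowest mean levels of each step, genes called between genotypes or in the interaction, and the 2 extremes at each end of each further list. Alternatives covered the pseudocount, filter, scaling, eBayes options, the letter as a block, and each library left out; removal of GC and length trends was added after the data were seen.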

Additional observations from a re-analysis of the deposited data

Results flagged for a closer look

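In 4 of 96 groups of 4 stimulated libraries, 1 library lay far from the other 3, and at 1 in 20 chance alone would give 4.80. Gnl3 stood at 218.6 FPKM in wild-type library D (others 230.2 to 232.4), Nmd3 at 92.2 FPKM in wild-type library C (81.3 to 82.4), Mphosph10 at 97.0 FPKM in wild-type library C (88.5 to 88.7) and Ddx21 at 260.2 FPKM in labelled knockout library B (278.6 to 280.4). The rise with anti-IgM differed between genotypes by a limma interaction test in 18 of the 48 genes (adjusted p from 0.0027 to 0.0496), against 18.9% of tested genes. Each genotype has 1 unstimulated library, and the stimulated values of the 18 differ by only -0.058 to 0.084, so the test reads the difference between those 2 libraries, which cannot be told apart from one between genotypes. The log2 differences, labelled knockout minus wild type, were 0.42 for Nip7, 0.39 for Mphosph10, 0.36 for Nop58, 0.35 for Npm1, 0.32 for Dkc1, 0.26 for Nhp2, -0.21 for Nolc1, -0.25 for Grwd1, -0.26 for Noc4l, -0.29 for Rrp9, -0.29 for Gar1, -0.31 for Nop2, -0.32 for Rrp12, -0.33 for Rrp1b, -0.33 for Bysl, -0.39 for Rrs1, -0.45 for Mybbp1a and -0.55 for Tcof1. Of these, 1 was called once GC and length trends were removed. The positive differences then ran from 0.24 to 0.46 and the negative ones from -0.27 to -0.030.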

How the results depend on the processing

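The median change of the 48 genes, 1.30, was 1.24 with a pseudocount of 5, 1.47 with each library rescaled to the same sum, 1.53 with median-of-ratios scaling, 1.19 with quantile normalization, 1.47 with immunoglobulin genes left out before rescaling and 1.43 with GC and length trends removed. Every one of the 48 stayed above 0 in all 24 alternatives, and 32 kept the same call in all of them. Called members ranged from 35 (quantile normalization) to 48 (no minimum change). Of the 10225 tested genes these settings called 983 and 3188 higher, against 812 as reported. Leaving out the unstimulated library labelled knockout left 1 unstimulated library, and the median change of the 48 was 1.28. The changes of Dkc1 (0.96), Mphosph10 (0.88), Nip7 (0.86), Nmd3 (0.91), Npm1 (0.84) and Wdr12 (0.998) then dropped below 1. That of Tcof1 (1.16) passed it. Without the unstimulated wild-type library the median was 1.29 and Gar1 dropped to 0.91. Genotype calls among the 48 fell from 2 to 1 with rescaling to the same sum and with immunoglobulin genes left out. They also fell to 1 with eBayes without trend and with the letter as replicate block. Over tested genes these 4 settings gave 862, 862, 876 and 740 genotype calls, against 994 as reported. Among the 48 they rose to 3 with median-of-ratios scaling (936 over tested genes) and with GC and length trends removed (1096 of 9730). When 1 library was left out they lay between 1 and 2 (between 712 and 921 over tested genes). With the letter as a replicate block 42 stimulation, 1 genotype and 14 interaction calls were made. Over the 10225 tested genes the block gave 815 calls higher with anti-IgM (812 as reported). It gave 740 between genotypes (994 as reported) and 1238 in the interaction (1931 as reported). Interaction calls among the 48 went from 18 to 8 with median-of-ratios scaling, to 1 with GC and length trends removed, and to 1 with both. They went to between 12 and 18 when 1 stimulated library was left out. Over tested genes the same settings took 1931 calls to 1292, to 471 of 9730, to 413 of 9730 and to between 1534 and 1904. The calls of Gar1, Grwd1, Nhp2, Noc4l, Nolc1 and Npm1 depended on single libraries (limma adjusted p up to 0.0773). Over the stimulation changes of the 48 genes, the genotype differences of 6 and the interactions of 18, 1492 values kept their call, 135 lost it, 29 gained one and 0 changed sign. Signs of other members did change: 21 of the 48 interaction values were above 0 as reported, 7 with rescaling to the same sum, 27 with median-of-ratios scaling and 33 with GC and length trends removed. Apart from those named alternatives the cause of the changes was not tested. Depth is unknown, so no counting error could be given.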
